A study of Mus musculus with 16 samples.

Results

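10 genes of the Sox family were followed through the chemical conversion of mouse fibroblasts into neural stem-like cells. They were taken by symbol from the deposited table of raw counts, and they are 10 of its 37991 genes. Sox2, Sox3 and Sox21 belong to the SoxB class, Sox4 and Sox11 to SoxC, Sox5 and Sox6 to SoxD, and Sox8, Sox9 and Sox10 to SoxE. The table carries a second row with the symbol Sox4, a short feature nested inside the first, which had 0 counts in every library and was kept apart.

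The 16 libraries fall into 7 groups. The starting cells (D0, n = 2) were tdMEFs, mouse embryonic fibroblasts of a 129xC57BL6 background in which Fsp1-Cre had recombined the ROSA26tdTomato reporter, and the treated groups derive from such cells. Treated cells were collected on days 4, 8 and 12 (D4, D8 and D12, n = 3 each) of a medium called M9, kept at low oxygen. M9 contains CHIR99021 (a GSK3 inhibitor), LDN193189, A83-01, Hh-Ag1.5, retinoic acid, SMER28, RG108, Parnate and bFGF. The ciNSLC group (n = 3) holds neural stem-like cells obtained by M9 treatment. The descriptions of its second and the third libraries carry the marks P4 and P2. Both neural controls come from embryonic cortex and have 1 library each: SCR029, a neural stem cell line of C57BL6 origin, and priNPC, primary progenitors of the 129xC57BL6 background. Fsp1-Cre marks cells that had expressed Fsp1, so the traced population need not be a single cell type. Whether replicates of a group came from different cultures is not stated, so the p-values measure the spread between these libraries only, which may be technical.

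Sox proteins bind DNA through an HMG box and act with partner factors that differ between cell types. SoxB1 proteins, Sox2 and Sox3 here, maintain neural progenitors, whereas the SoxB2 protein Sox21 is known as a repressor that counteracts them. SoxC proteins act in newly born neurons and in mesenchyme. Sox9 specifies chondrocytes and, in the nervous system, neural stem cells and glia. Sox5 and Sox6 help Sox9 on cartilage genes and restrain oligodendrocyte maturation, and Sox10 drives neural crest, Schwann cell and oligodendrocyte programmes.

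Levels are given as CPM, counts scaled to a common library total, after TMM scaling (trimmed mean of M values), and log2 changes with their standard error (SE) come from edgeR's quasi-likelihood test over all genes, with Benjamini-Hochberg adjusted p under 0.05 as the threshold. A gene past that threshold is called. All 10 genes passed the filter on low counts in both fits. Only 6 of them reached the filter's 0.269 CPM in both D0 libraries. Sox2 reached it in 1 D0 library, and Sox3, Sox21 and Sox10 in 0, so that these 4 entered the comparisons with D0 through later groups.

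Library totals ran from 29.4 to 55.5 M counts, so 3 counts, the limit that a count of 0 allows, correspond to 0.0585 to 0.133 TMM-scaled CPM in a library. The first library of each replicated group and SCR029 form batch 1, and all others, priNPC included, form batch 2. The fibroblast list of 10 markers (Col1a1, Dcn and others) summed to 23284 and 28502 CPM at D0 and 21.8 to 121 CPM in ciNSLC. Not every marker fell during treatment. Dcn had 165 and 329 CPM at D0 and 1762, 2412 and 2315 CPM at D12, and Lum 305 and 399 CPM, then 645, 840 and 743 CPM. On days 4 and 8 the batch 1 libraries stood apart, with sums of 1591 and 2278 CPM against 7910 to 12008 CPM in the other libraries of those days. Mitochondrial rRNA took 52.7% and 49.7% of their counts, against 16.5% to 26.4% in those others. Its share was 22.6% and 14.3% at D0, 49.2%, 53% and 44.3% in ciNSLC, and 47.4% in SCR029. The list of 10 neural progenitor markers summed to 61.8 and 84.3 CPM at D0 and 4395 to 6675 CPM in ciNSLC. Of 12 myeloid markers in the table, all had counts in both D0 libraries. They summed to 13.8 CPM in the first and 3715 CPM in the second. Bulk libraries cannot tell fewer cells of a type from less RNA per cell, and the part of these shifts in the Sox levels was not tested.

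The first D12 library also stood apart from the second and the third. Its neural progenitor markers summed to 1460 CPM, against 386 and 565 CPM. It is therefore given separately where D12 levels of the Sox genes are listed, and the fits include it unless stated.

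The promoters of 4 genes are shown because these genes form a pair whose levels ran closest together, Sox2 and Sox21, and a pair of one class whose levels ran apart, Sox11 and Sox4. Each line is the 250 bases before the RefSeq start in GRCm38.p6, read 5′ to 3′ on the gene's strand, with every CCAAT on either strand (read as CCAAT or ATTGG) in capitals. The windows are chr3:34649745-34649994 (+) for Sox2, chr14:118237031-118237280 (-) for Sox21, chr12:27342719-27342968 (-) for Sox11 and chr13:28953700-28953949 (-) for Sox4.
Sox2: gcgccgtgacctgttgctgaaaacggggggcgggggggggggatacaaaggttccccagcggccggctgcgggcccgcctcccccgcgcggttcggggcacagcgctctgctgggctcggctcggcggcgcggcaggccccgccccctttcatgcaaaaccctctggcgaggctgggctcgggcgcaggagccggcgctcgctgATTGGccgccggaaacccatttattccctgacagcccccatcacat
Sox21: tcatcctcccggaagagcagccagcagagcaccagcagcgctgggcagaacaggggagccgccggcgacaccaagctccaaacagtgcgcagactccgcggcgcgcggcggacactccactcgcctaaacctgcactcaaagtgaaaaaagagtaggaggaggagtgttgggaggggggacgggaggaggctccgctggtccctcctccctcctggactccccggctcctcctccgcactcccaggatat
Sox11: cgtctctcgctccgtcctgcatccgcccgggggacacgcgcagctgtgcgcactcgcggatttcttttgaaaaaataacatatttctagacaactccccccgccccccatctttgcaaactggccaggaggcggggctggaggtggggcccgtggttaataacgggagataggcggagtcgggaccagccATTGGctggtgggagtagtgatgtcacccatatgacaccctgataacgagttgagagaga
Sox4: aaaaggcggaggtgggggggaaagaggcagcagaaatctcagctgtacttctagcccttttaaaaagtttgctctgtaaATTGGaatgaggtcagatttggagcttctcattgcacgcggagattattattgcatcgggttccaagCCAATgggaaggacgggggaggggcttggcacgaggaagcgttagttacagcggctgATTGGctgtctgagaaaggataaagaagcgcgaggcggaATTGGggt
The Sox2 window holds 1 CCAAT, 46 bases before the start, and the Sox11 window 1, 60 bases before. Sox4 holds 4, from 8 to 171 bases before the start, and Sox21 holds 0. Of 32851 promoter windows, 33.8% contain CCAAT on at least 1 strand. The letters are a description of these windows and were not tied to any level.

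Sox2 (chr3:34548927-34551383, mm9), a core factor of neural stem cells, was near the floor before treatment, at 0.416 and 0.026 CPM in the D0 libraries. Its level was 1.54, 0.487 and 0.659 CPM at D4 and 3.95, 1.19 and 3.02 CPM at D8. The first D12 library had 12.2 CPM, and the other two 1.52 and 2.8 CPM. All libraries from D4 on lay above D0, and the second and the third D12 libraries lay inside the D8 range.

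In ciNSLC, Sox2 reached 56.6, 56.5 and 37.4 CPM, above every treated library. SCR029 had 44.4 CPM (95% exact interval 42.2 to 46.7) and priNPC 97.6 CPM (94.6 to 101), so that ciNSLC lay around the first and below the second. Sox2 rose from D0 to D12 by 4.56 on the log2 scale (SE 1.09, adjusted p = 0.019, edgeR), and without the first D12 library by 3.20 (adjusted p = 0.033). Leaving out the second D0 library ended the call. The difference in log2(CPM + 0.5) was 3.79 within batch 1 and 2.34 within batch 2. The D8 change of 3.53 (SE 1.06) did not pass (adjusted p = 0.065, edgeR), but it passed without the first D12 library (3.52, adjusted p = 0.023) and in batch 2 alone (6.20, adjusted p = 0.011). From D12 to ciNSLC Sox2 rose by 3.19 (SE 0.81, adjusted p = 0.011), and by 4.57 (adjusted p = 0.0012) without the first D12 library.

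Sox21 (chr14:118632454-118636252, mm9) ran almost in parallel. It stood at 0.0625 and 0.026 CPM at D0, 1.09, 0.467 and 0.127 CPM at D4, and 5.22, 1.48 and 2.53 CPM at D8. The first D12 library had 11.8 CPM and the other two 1.25 and 2.29 CPM. The D4 and D8 libraries do not overlap D0 or each other, and the second and the third D12 libraries were no higher than the D8 range.

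ciNSLC had 47.9, 64.1 and 48.2 CPM of Sox21, SCR029 39.7 CPM (37.7 to 41.9) and priNPC 94.2 CPM (91.3 to 97.2). Sox21 is the 1 member called at D8 against D0, with a log2 change of 5.96 (SE 1.32, adjusted p = 0.018, edgeR). Over all tested genes 7.15% were called in that comparison, 4.1% higher and 3.05% lower. That call was lost without either D0 library (adjusted p = 0.1 and 0.12). At D12 the change was 6.71 (SE 1.33, adjusted p = 0.008), and 5.17 (adjusted p = 0.0075) without the first D12 library; this call too was lost without either D0 library. Part of the Sox21 span is shared with Gm4675 on the opposite strand, and the amplification does not mark strand, so reads there cannot be assigned to one of the genes. Gm4675 was given 493 counts over the 16 libraries, against 11308 for Sox21.

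Between D8 and D12, neither gene was called. The log2 change was 1.03 (SE 0.76, adjusted p = 0.75, edgeR) for Sox2 and 0.75 (SE 0.76, adjusted p = 0.87) for Sox21 with all libraries. Without the first D12 library both values turned negative, at -0.32 (adjusted p = 0.86) and -0.78 (adjusted p = 0.61), with the first D8 library of the same batch still in the fit. The difference in log2(CPM + 0.5) was 1.51 within batch 1 and 0.03 within batch 2 for Sox2, and 1.11 and -0.14 for Sox21.

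Sox3 (chrX:58144545-58146605, mm9), the SoxB1 paralogue of Sox2, was the lowest of the 3 in every library, and whether it rose later was not tested. It had 0 counts in both D0 libraries, and 5 and 7 counts over all D4 and all D8 libraries. The first D12 library had 1.01 CPM, the second 0.0272 and the third 0.414 CPM. ciNSLC had 3.79, 5.16 and 9.24 CPM, SCR029 3.41 CPM (2.82 to 4.07) and priNPC 6.82 CPM (6.05 to 7.66). Against a floor of 3 counts over D0, Sox3 was at least 14.2-fold higher at D12 (adjusted p = 0.033, edgeR) and at least 167-fold higher in ciNSLC (adjusted p = 0.0011). Of the 58 D12 counts 40 came from the first library, and without it Sox3 was at least 6.66-fold higher. The D12 call was lost without that library (adjusted p = 0.057), without the third, and without either D0 library.

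Sox2ot, the long noncoding RNA gene whose span contains Sox2 on the same strand, was given 0 and 0.0521 CPM at D0 and 0.301, 0.244 and 0.203 CPM at D4. It had 2.01, 1.85 and 3.25 CPM at D8. At D12 the first library had 2.56 CPM and the others 1.66 and 2.48 CPM. ciNSLC had 8.85, 14.9 and 5.92 CPM. Unlike Sox2, it was not set apart in the first D12 library, and it rose from D4 to D8 by 3.25 (SE 0.53, adjusted p = 0.034, edgeR). How reads over the shared span were assigned is not given in the sources used here, so the split between Sox2 and Sox2ot is uncertain.

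**Figure D1:**
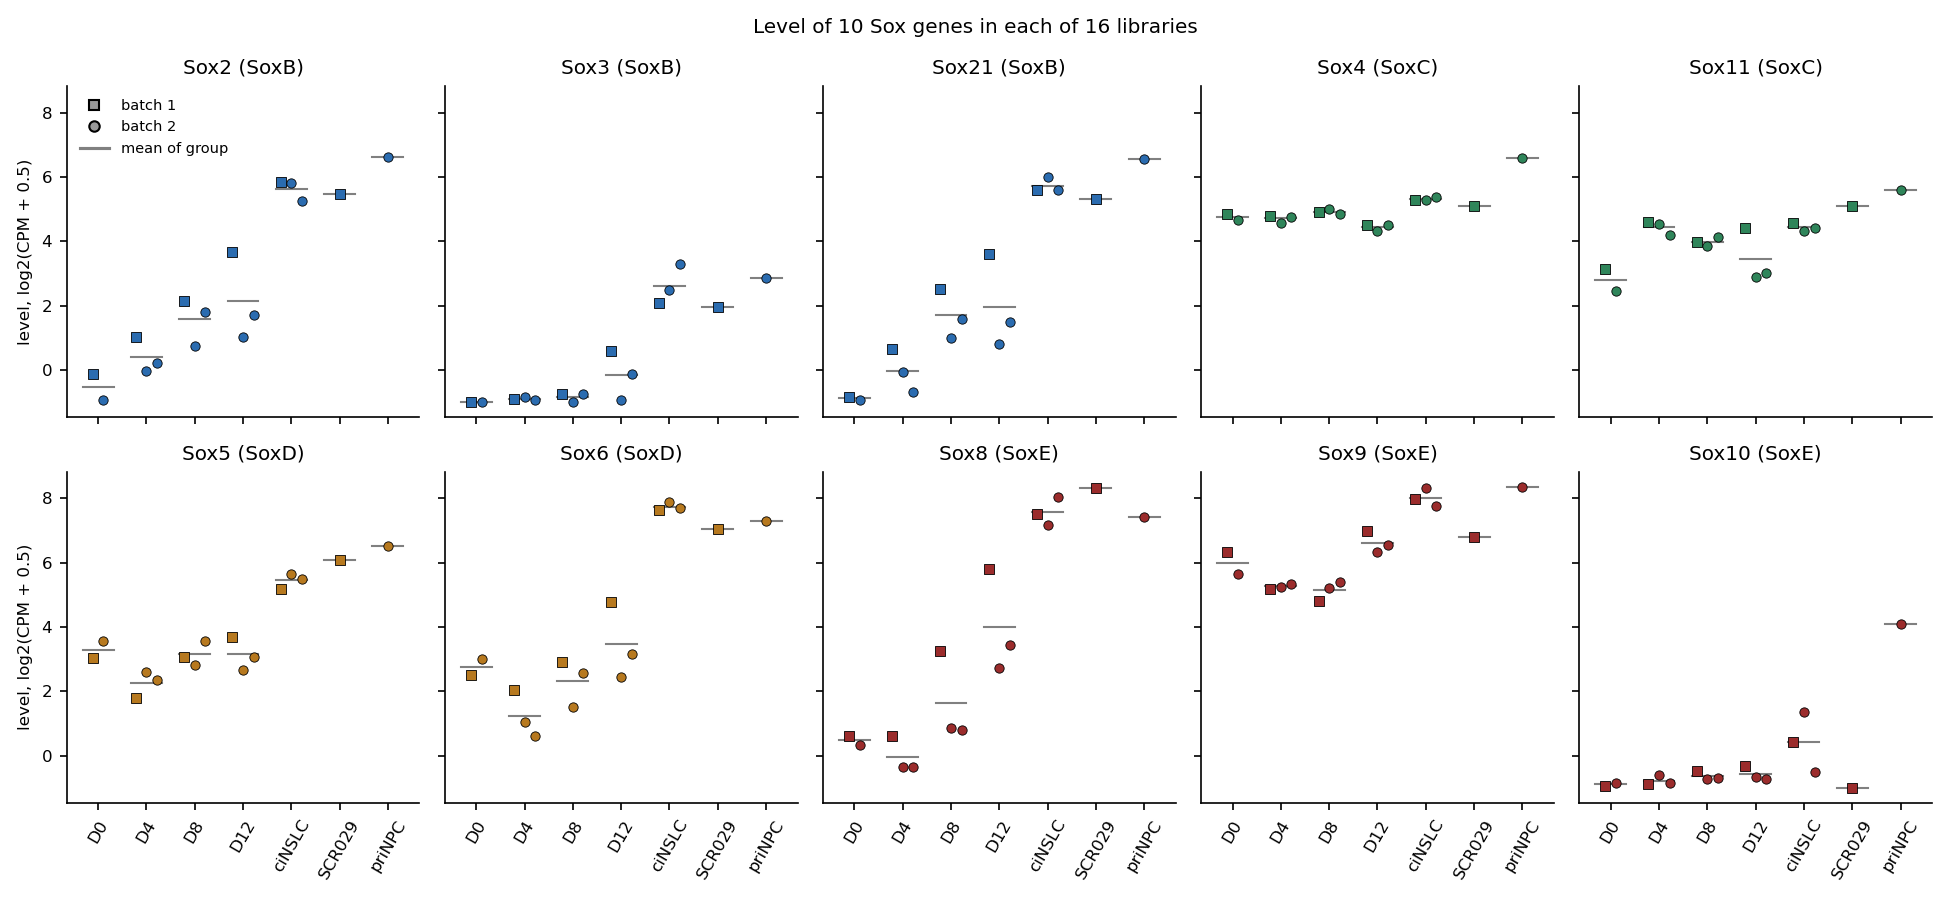
Level of each Sox gene as log2(CPM + 0.5) (vertical axis) in every library, by group (horizontal axis). Squares are batch 1, circles batch 2, and grey lines the mean of the group; Sox2 and Sox21 climb in parallel, Sox4 stays within a narrow band up to ciNSLC, and Sox9 dips at D4 and D8.

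Sox11 (chr12:28025562-28027574, mm9), a SoxC factor of differentiating neurons, was the earliest of the 10 genes to be called. D0 had 8.37 and 5.03 CPM, and D4 23.6, 22.9 and 17.7 CPM. D8 had 15.2, 13.9 and 17.1 CPM. The D4 and D8 libraries all lay above D0 and did not overlap each other. At D12 the first library had 21.1 CPM, inside the D4 range, while the second and the third had 6.98 and 7.52 CPM, inside the D0 range. ciNSLC had 23.5, 19.6 and 20.8 CPM, SCR029 33.9 CPM (32 to 35.9) and priNPC 48.1 CPM (46 to 50.2).

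Sox11 rose from D0 to D4 by 1.68 on the log2 scale (SE 0.44, adjusted p = 0.038, edgeR). It is the 1 member of 10 called in that comparison, in which 7.22% of all 17455 tested genes were called in either direction, 3.55% higher and 3.68% lower. The call was lost when either D0 library or any of the D4 libraries was left out (adjusted p up to 0.24), and likewise without the second or the third D8 library or the first or second ciNSLC library. Within batch 1 the difference in log2(CPM + 0.5) was 1.44, and within batch 2 it was 1.91. The D12 change from D0 was 0.82 (SE 0.42, adjusted p = 0.26), and 0.11 (adjusted p = 0.83) without the first D12 library. Sox11 was the 1 gene of the 10 not called between D12 and ciNSLC (0.85, SE 0.37, adjusted p = 0.11, edgeR). Without the first D12 library that change was 1.59 (adjusted p = 0.00087).

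Sox4 (chr13:29040788-29045582, mm9), its SoxC partner, changed little across the treatment. It had 28.2 and 25.1 CPM at D0, 27.5, 23.4 and 26.6 CPM at D4, and 29.4, 31.4 and 28.5 CPM at D8. The D12 libraries had 22.5 CPM in the first and 19.4 and 22.5 CPM in the others, so here the first library did not stand apart. ciNSLC had 39, 38.9 and 41.5 CPM, above all treated libraries, SCR029 34 CPM (32.1 to 36) and priNPC 95.7 CPM (92.8 to 98.8). Sox4 was called higher in ciNSLC than in D0, by 0.58 (SE 0.18, adjusted p = 0.027, edgeR), a call lost without either D0 library. It also rose from D12 to ciNSLC by 0.89 (SE 0.16, adjusted p = 0.0013). No change on days 4 to 12 passed against D0, and the D4 value of -0.04 (SE 0.18, adjusted p = 0.93) took either sign when a library was left out. From D8 to D12 the 3 libraries on each side do not overlap, and the change of -0.47 (SE 0.16) did not pass (adjusted p = 0.26).

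Sox6 (chr7:122614858-123182258, mm9), the SoxD gene with the larger shift, had 5.16 and 7.58 CPM at D0 and 3.61, 1.56 and 1.01 CPM at D4. D8 had 7.04, 2.32 and 5.43 CPM. The first D12 library had 27.2 CPM and the others 4.97 and 8.52 CPM, close to D0. In ciNSLC the level was 199, 237 and 207 CPM, above SCR029 at 131 CPM (127 to 135) and priNPC at 156 CPM (152 to 160). The change from D0 to ciNSLC was 5.07 (SE 0.83, adjusted p = 0.00059, edgeR). At D4 all libraries lay below D0, and the change of -1.64 (SE 0.67) did not pass (adjusted p = 0.17). Within batch 2 that test gave -2.50 and passed (adjusted p = 0.015). At D12 the change from D0 was 1.09 (SE 0.68, adjusted p = 0.36), and 0.09 (adjusted p = 0.94) without the first D12 library. The difference in log2(CPM + 0.5) was 2.29 within batch 1 and -0.16 within batch 2.

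Sox5 (chr6:143776945-144730497, mm9), the other SoxD member, had 7.7 and 11.3 CPM at D0, 2.97, 5.52 and 4.64 CPM at D4, and 7.81, 6.49 and 11.4 CPM at D8. The first D12 library had 12.5 CPM and the others 5.81 and 7.96 CPM. All D4 libraries lay below D0, with a change of -1.11 (SE 0.37, adjusted p = 0.092, edgeR) that did not pass, and both D8 and D12 overlapped D0. At D12 the difference from D0 in log2(CPM + 0.5) was 0.67 within batch 1 and -0.67 within batch 2. ciNSLC had 35.6, 50.2 and 45 CPM, SCR029 66.9 CPM (64.2 to 69.7) and priNPC 90.5 CPM (87.6 to 93.4). Sox5 rose from D0 to ciNSLC by 2.20 (SE 0.40, adjusted p = 0.0013) and from D12 by 2.31 (SE 0.35, adjusted p = 0.00041).

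Sox9 (chr11:112643538-112649074, mm9) was already high in the fibroblasts, at 79.8 and 50.2 CPM. D4 had 36.1, 37.8 and 39.9 CPM and D8 27.8, 36.4 and 41.7 CPM, all below D0. At D12 the first library had 127 CPM and the others 80.2 and 92.3 CPM, so that all 3 lay above D8. They also lay above D0, the second only just. The D12 change from D0 of 0.62 (SE 0.29) did not pass (adjusted p = 0.2, edgeR). Without the first D12 library that change was 0.40 (adjusted p = 0.4). The D4 and D8 changes from D0, -0.78 (SE 0.28) and -0.88 (SE 0.28), did not pass (adjusted p = 0.12 and 0.078, edgeR).

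Sox9 rose from D8 to D12 by 1.50 (SE 0.26, adjusted p = 0.042, edgeR). It is the 1 member called in that comparison, in which 0.16% of tested genes were called in either direction, 0.0917% higher and 0.0687% lower. The call was lost without any one D8 or D12 library and without the second or the third D4 or the first or second ciNSLC library, at adjusted p up to 0.17. Without the first D12 library the change was 1.29 (adjusted p = 0.066). The difference in log2(CPM + 0.5) was 2.17 within batch 1 and 1.13 within batch 2, where the test passed on its own (adjusted p = 0.017). In ciNSLC Sox9 had 251, 320 and 217 CPM, 2.01 above D0 (SE 0.30, adjusted p = 0.00032), with 110 CPM (107 to 114) in SCR029 and 330 CPM (324 to 335) in priNPC.

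Sox8 (chr17:25702837-25707631, mm9), the SoxE gene that shares many roles with Sox9 and Sox10, had 1.04 and 0.755 CPM at D0 and 1.02, 0.284 and 0.279 CPM at D4. D8 had 8.95, 1.31 and 1.22 CPM, with the batch 1 library far above the other two. D12 had 55.4 CPM in the first library and 6.16 and 10.3 CPM in the others. Every D12 library lay above D0, and the second lay below the highest D8 library. Its change from D0 to D12 was 4.73 (SE 1.20, adjusted p = 0.025, edgeR), and 3.18 (adjusted p = 0.043) without the first D12 library; the call was lost without either D0 library. The difference in log2(CPM + 0.5) was 5.18 within batch 1 and 2.80 within batch 2. ciNSLC had 181, 144 and 262 CPM, SCR029 322 CPM (316 to 328) and priNPC 170 CPM (166 to 174). From D12 to ciNSLC it rose by 3.03 (SE 0.90, adjusted p = 0.025), a call lost without the second or the third D12 library or the third ciNSLC library.

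Sox10 (chr15:78985343-78994920, mm9) stayed low in all treated cells. It had 0.0208 and 0.0521 CPM at D0, 3 counts in all, and 0.0376, 0.162 and 0.0507 CPM at D4. D8 had 0.216, 0.0975 and 0.113 CPM and D12 0.302 CPM in the first library and 0.136 and 0.0974 CPM in the others. The ciNSLC libraries differed among themselves, at 0.836, 2.05 and 0.203 CPM, and the third lay inside the D12 range. SCR029 had 0 counts, which allows up to 0.0852 CPM, whereas priNPC had 16.7 CPM (15.5 to 18). The pooled ratio of ciNSLC to D0 was 26.7 (95% counting interval 8.83 to 132, adjusted p = 0.0081, edgeR). That call was lost without the first D0 library. The ratio of D12 to D0 was 5.14 (1.53 to 26.9), with an adjusted p of 0.24, and 3.33 (0.83 to 19.1) without the first D12 library. The rise from D12 to ciNSLC of 2.49 (SE 0.83, adjusted p = 0.041) was lost without the second or the third library of D12, D8 or the first or second of ciNSLC, or without the third of D4.

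**Figure D2:**
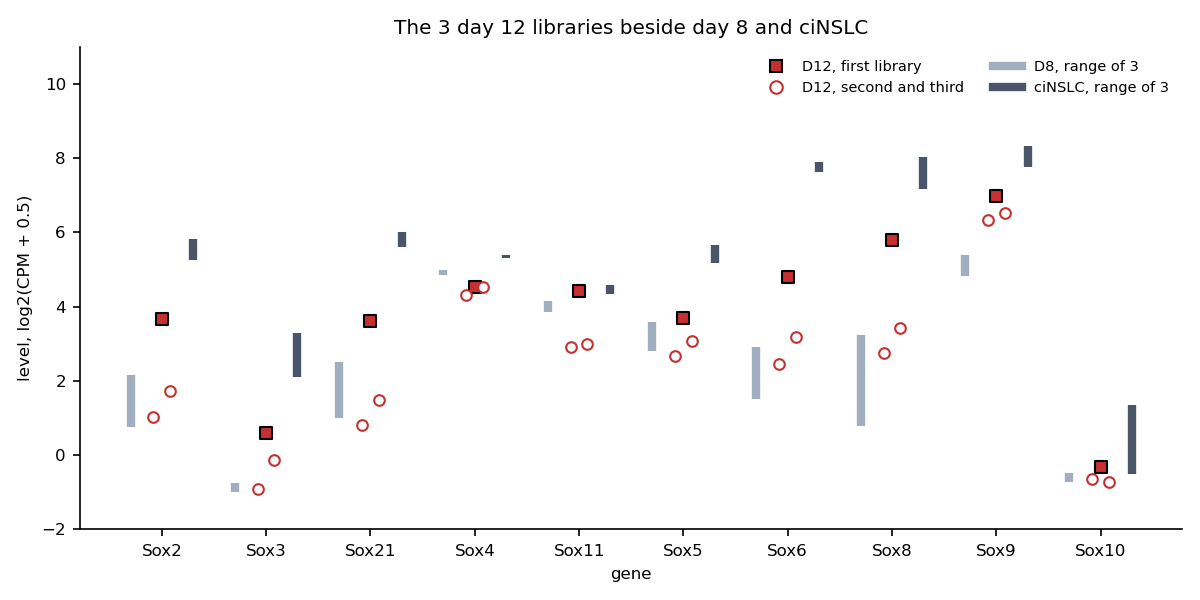
Level as log2(CPM + 0.5) (vertical axis) of each Sox gene (horizontal axis) in the D12 libraries, with the first as a red square and the second and the third as open circles. Bars are the range of the 3 D8 libraries (light) and the 3 ciNSLC libraries (dark). The first D12 library lies above the others for all genes but Sox4, where it is level with the third.

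Set against the mean of the second and the third, the first D12 library was 6.73 times higher for Sox8, 6.69 for Sox21, 5.65 for Sox2, 4.56 for Sox3, 4.03 for Sox6 and 2.91 for Sox11. It was 2.59 times higher for Sox10, 1.82 for Sox5, 1.47 for Sox9 and 1.07 for Sox4. These are plain ratios of CPM. Over all 17455 tested genes the ratio was instead taken on CPM + 0.5, which makes the ratios of low genes smaller in size. On that scale 8.9% had a log2 ratio over 1, and the median was -0.03. The plain ratios of low genes such as Sox3 and Sox10 cannot be set directly against that share. The fibroblast markers summed to 9053 CPM in that library and to 11842 and 10999 CPM in the others. Its levels of Sox2, Sox3, Sox21, Sox5, Sox6, Sox8 and Sox9 lay between those of the other D12 libraries and ciNSLC. It is the 1 D12 library of batch 1, so library and batch cannot be told apart.

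Counted over the 10 genes, 1 was called at D4 (Sox11), 1 at D8 (Sox21) and 4 at D12 (Sox2, Sox3, Sox21 and Sox8), all higher than D0. At D12, 10.5% of all tested genes were called in either direction, 5.81% higher and 4.73% lower. The median log2 change of the 10 genes was 0.60, 1.54 and 1.66 on the 3 days, beside 0.02, 0.02 and 0.01 for all tested genes. With Sox3 at its bound, the D4 and D8 medians are 0.14 and 0.93. The 4 calls at D12 became 3 without the first D12 library, 1 without the first D0 library and 0 without the second, and voom called 1.

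From D8 against D4, edgeR called 0 of the 10 genes, beside 0.16% of all tested genes. DESeq2 called 1, Sox8, beside 273 of all 17455 tested genes. The D8 libraries all lay above the D4 libraries for Sox21, Sox5, Sox8 and Sox4, and all below them for Sox11. How many of all genes separate in this way was not counted.

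The step to ciNSLC involved nearly the whole set. All 10 genes were called higher in ciNSLC than in D0, where 28.2% of tested genes were called in either direction and 11.7% were called higher. Against D12, 9 were called higher, where 27.5% were called in either direction and 11% higher. The median log2 change of the 10 was 4.90 against D0 and 2.76 against D12, beside -0.07 and -0.09 over all tested genes. Without the third D12 library, 5 of the 9 calls against D12 were left. Fits scaled by DESeq2 size factors gave the same sign for every called gene.

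**Figure D3:**
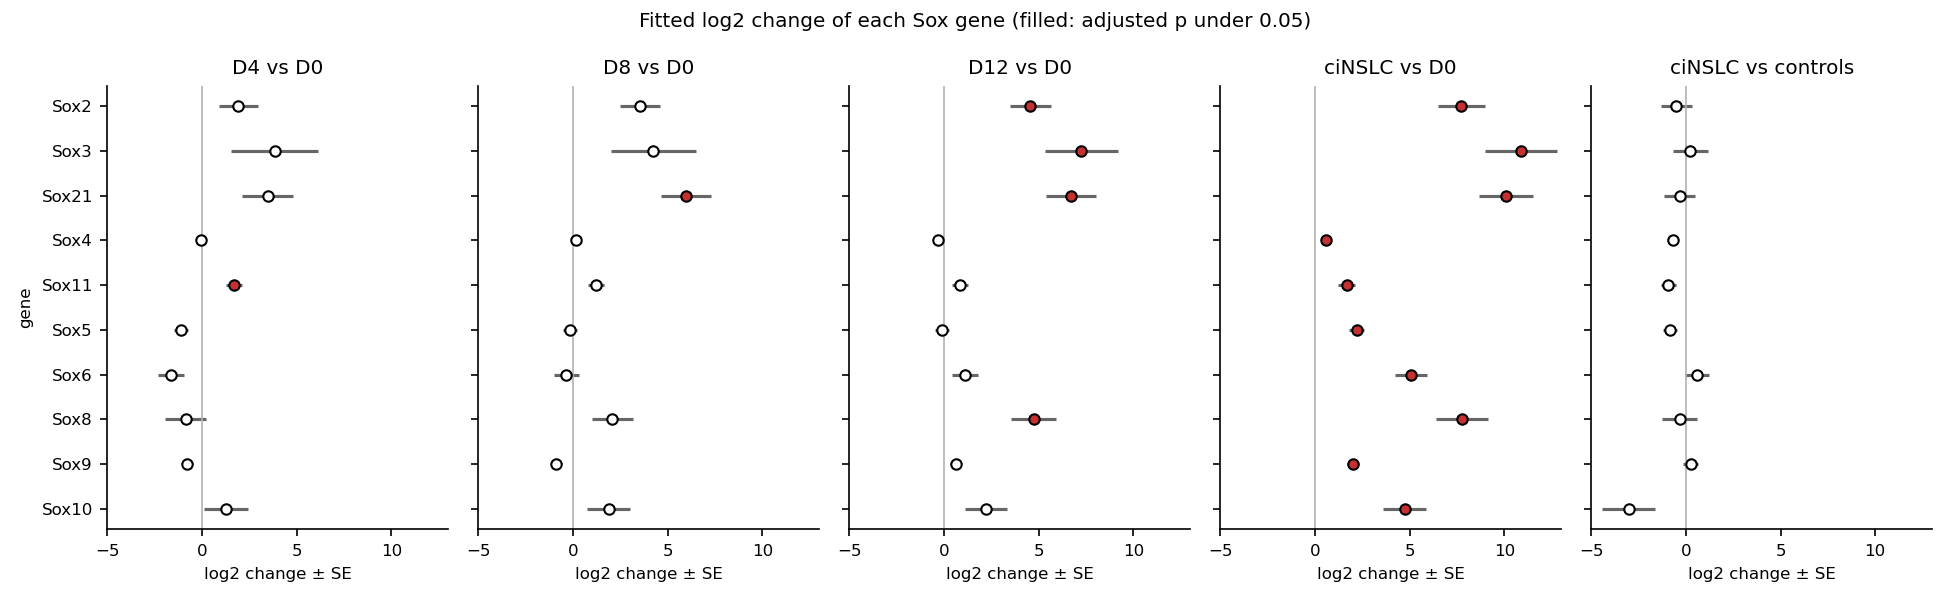
Fitted log2 change (horizontal axis, bars are 1 SE) of each Sox gene (vertical axis) in 5 comparisons, with called genes filled. Sox11 is the one filled point at D4, Sox21 at D8, all 10 are filled in ciNSLC against D0, and 0 in ciNSLC against the neural controls; the Sox3 values against D0 rest on 0 counts there.

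The neural controls, fitted as 1 group of 2 different sources, also had all 10 genes called higher than D0, where 23.9% of 17636 tested genes were called in either direction and 10.1% higher. Sox3 was at least 152-fold higher. With SCR029 as the only control 7 were called, without Sox4, Sox9 and Sox10. Between ciNSLC and the controls edgeR called 0 of the 10, beside 1.53% of all tested genes (0.879% higher and 0.652% lower). DESeq2 also called 0 of the 10, beside 995 of all 17636 tested genes. The changes with the lowest p were -0.85 (SE 0.36, adjusted p = 0.3) for Sox5, -0.94 (SE 0.40, adjusted p = 0.31) for Sox11 and -0.70 (SE 0.30, adjusted p = 0.32) for Sox4. Sox5 and Sox11 were lower in each ciNSLC library than in either control, and Sox6 was higher in each, by 0.58 (SE 0.64, adjusted p = 0.78). For Sox10 the difference was -3.03 (SE 1.38, adjusted p = 0.35), with SCR029 below and priNPC above every ciNSLC library. With priNPC as the only control, Sox4 and Sox10 were called lower in ciNSLC. For Sox2 (-0.50, SE 0.81) and Sox8 (-0.33, SE 0.91) the standard error was larger than the difference. The sign differed between batches for Sox9, at 1.19 within batch 1 and -0.30 within batch 2 in log2(CPM + 0.5), and for Sox4, at 0.20 and -1.24. The same held for Sox2 (0.35 and -1.05), Sox21 (0.27 and -0.74), Sox8 (-0.83 and 0.26) and Sox10 (1.42 and -3.40). Each batch holds a different control, so source and batch cannot be told apart.

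Per kilobase of exon, Sox9 led or overlapped the leading Sox gene in every group but SCR029. At D0 Sox9 led with 15.7 ± 5.05 CPM per kilobase (SD, n = 2), followed by Sox4 at 5.55 ± 0.456 and Sox11 at 3.33 ± 1.17, and the libraries of these 3 neighbours do not overlap. At D4 Sox11, at 10.6 ± 1.61 (SD, n = 3), and Sox9, at 9.17 ± 0.453, overlapped at the top. D8 kept Sox9 (8.53 ± 1.71), Sox11 (7.65 ± 0.788) and Sox4 (6.21 ± 0.307) as the first 3. At D12 Sox9 stood alone at 24.2 ± 5.88, with 30.7 in the first library and 19.4 and 22.3 in the others. Below it, the first library had 17.8 for Sox8, 10.5 for Sox11 and 4.7 for Sox4. The second and the third had 1.98 and 3.3 for Sox8, 3.47 and 3.74 for Sox11, and 4.05 and 4.69 for Sox4. The place of Sox8 above Sox11 and Sox4 was thus seen in the first library only.

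In ciNSLC, Sox9 at 63.5 ± 12.7 CPM per kilobase and Sox8 at 62.7 ± 19.4 overlapped at the top, above Sox6 at 24.2 ± 2.3 and Sox2 at 20.4 ± 4.5 (SD, n = 3). SCR029 was led by Sox8 with 103 CPM per kilobase and priNPC by Sox9 with 79.8. Summed by class, SoxC genes made up 32.4% and 35.4% of the level per kilobase of the 10 genes at D0 and 57.7% to 62.2% at D4. They were 49.4% to 55.4% at D8 and 8.32% to 9.85% in ciNSLC. At D12 they were 19.9% in the first library and 24.4% and 22.4% in the others. Their summed level itself was 10 and 7.72 CPM per kilobase at D0, 13.5 to 14.4 at D8 and 17.9 to 19.8 in ciNSLC, so the lower share in ciNSLC goes with higher levels of the other classes. SoxE genes made up 63.4% and 57% at D0, 32.3% to 39.2% at D4 and 34.9% to 38.1% at D8. At D12 they were 63.7% in the first library and 69.4% and 68.4% in the others, and in ciNSLC 57.8% to 63.7%. SoxB genes made up at most 0.6% at D0, 1.26% to 3.32% at D4 and 3.6% to 10.9% at D8. They were 11.2% in the first D12 library, 3.11% and 5.17% in the others, and 15.1% to 19.7% in ciNSLC. These shares are levels, with no test.

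The cartilage genes that Sox9 is known to activate with Sox5 and Sox6 were mostly lower in the later groups. Of 14 listed, 12 are in the table and 11 were tested. At D4, D8 and D12, 5, 4 and 4 of them were called lower than at D0, and the others were not called. Of all tested genes 3.68%, 3.05% and 4.73% were called lower. Col2a1, the main cartilage collagen, had 12.4 and 54.8 CPM at D0, 0.301, 0.954 and 0.609 CPM at D4, and at most 0.756 CPM in ciNSLC. It fell by 5.72 on the log2 scale at D4 (SE 1.14, adjusted p = 0.0099, edgeR). Comp, a cartilage matrix protein, had 6.1 and 10.3 CPM at D0 and no more than 0.195 CPM in any later library.

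In ciNSLC, where all of Sox9, Sox5 and Sox6 were at their highest outside the controls, 6 of the 11 cartilage genes were lower than at D0 and 1 was higher, where 16.5% of all tested genes were called lower and 11.7% higher. The median log2 change was -2.28, beside -0.07 for all tested genes. Hapln1, a cartilage link protein, was lower by 4.73 (SE 0.88, adjusted p = 0.0015, edgeR). The exception was Col9a3, a collagen IX chain, which rose from 1.23 and 0.964 CPM to 4.44, 7.7 and 12.1 CPM (2.88, SE 0.53, adjusted p = 0.0013), and had 40.2 CPM in priNPC. The 7 chondrocyte markers all belong to that list, and 6 had counts in each D0 library. They summed to 29.3 and 71.2 CPM at D0 and at most 3.19 CPM in all later libraries. Their part in the D0 level of Sox9 was not tested.

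**Figure D4:**
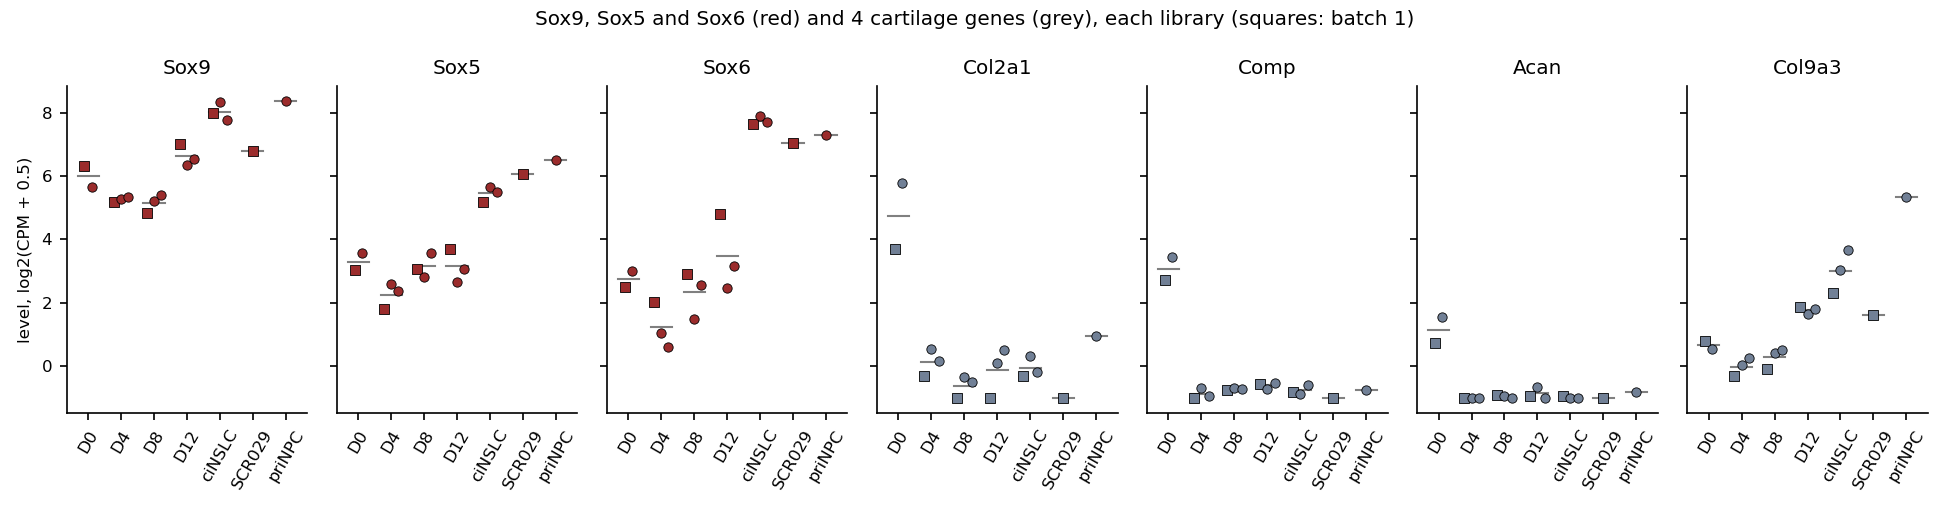
Level as log2(CPM + 0.5) (vertical axis) by group (horizontal axis) of Sox9, Sox5 and Sox6 (red) and of the cartilage genes Col2a1, Comp, Acan and Col9a3 (grey), one point per library, with batch 1 as squares and the group mean as a line. Each Sox gene is higher in all ciNSLC libraries than in any earlier library, whereas Col2a1, Comp and Acan are highest at D0 and Col9a3 is highest in priNPC.

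Some neural partners and targets of SoxB1 proteins were called at D4, when Sox2 was not, and the order of these changes was not tested. Of 10 listed and tested, 3 were called higher and 0 lower at D4, 4 and 1 at D8, 5 and 0 at D12, and 9 and 0 in ciNSLC, all against D0. Of all tested genes 3.55%, 4.1%, 5.81% and 11.7% were called higher in these comparisons. The median log2 change in ciNSLC was 5.22, beside -0.07 for all tested genes. Prom1, a membrane protein of neural stem cells, had 0.146 and 0.0781 CPM at D0 and 24 to 27.3 CPM at D4 (7.74, SE 0.51, adjusted p = 1.8e-05, edgeR). Prom1 had 0.227 CPM in SCR029 and 26 CPM in priNPC. The 4 epithelial markers, all in the table, summed to 0.312 and 1.15 CPM at D0, 36.6 to 139 CPM at D4 and at most 1.28 CPM in ciNSLC. Most of the D4 sum was Krt18, a keratin, at 137, 34.4 and 46.9 CPM. Krt8 had 1.47, 1.64 and 2.76 CPM at D4 and Epcam 0.564, 0.528 and 0.431 CPM. Cdh1 had 0, 0.0406 and 0 CPM at D4, against 0 and 0.964 CPM at D0. Whether epithelial cells were present, and any part of them in the D4 calls, was not tested. Pax6, a neural progenitor transcription factor, rose by 2.43 at D4 (SE 0.66, adjusted p = 0.043, edgeR). Its level went from 0.146 to 0.226 CPM in batch 1, and from 0.0521 to 0.812 and 0.609 CPM in batch 2. At D4 Sox2 had a change of 1.91 (SE 1.04, adjusted p = 0.32) that did not pass, with all D4 libraries above D0. Nes, the intermediate filament of progenitors, rose at D4 by 1.85 (SE 0.50, adjusted p = 0.043). Lhx2, a forebrain homeobox gene, fell at D8 by 1.49 (SE 0.40, adjusted p = 0.041) and was higher in ciNSLC than at D12 by 4.08 (SE 0.40, adjusted p = 2e-05). Prom1 was the 1 gene lower in ciNSLC than at D12, by 1.08 (SE 0.30, adjusted p = 0.018), where 7 were higher.

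The glial genes listed for Sox10 divided in ciNSLC, and their link to Sox10 in these cells was not tested. Of 13 in the table, 10 were tested, with 4 called higher and 2 lower against D0 and a median log2 change of 1.83. Of all tested genes 11.7% were called higher and 16.5% lower. Olig1 and Olig2, oligodendrocyte lineage factors, had at most 0.156 CPM at D0. In ciNSLC Olig1 had 917, 834 and 783 CPM and Olig2 231, 288 and 362 CPM (12.51, SE 1.92, adjusted p = 0.00037, edgeR). In the first D12 library Olig2 had 46 CPM, and in the others 2.74 and 5.77 CPM. SCR029, with 0 counts of Sox10, had 293 CPM of Olig2, and priNPC had 305 CPM. Cnp, a myelin enzyme, rose by 2.55 (SE 0.37, adjusted p = 0.00026). Mbp, the myelin basic protein gene, was lower than at D0 by 3.42 (SE 0.87, adjusted p = 0.01), where its libraries differed at 0.729 and 9.59 CPM, the second being the one with the myeloid markers. Egr2, a Schwann cell factor, fell by 4.54 at D4 (SE 0.44, adjusted p = 0.00016) and rose from D8 to D12 by 3.01 (SE 0.40, adjusted p = 0.011).

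Neuronal genes listed as targets of Sox4 and Sox11 gave 1 call at D4, when Sox11 rose. Of 8 tested, 1 was lower, Tubb3, the neuronal tubulin, by 1.92 (SE 0.41, adjusted p = 0.014, edgeR), where 7.22% of all tested genes were called. In ciNSLC 3 were higher and 2 lower than at D0, where 11.7% of all tested genes were called higher and 16.5% lower. Prox1, a homeobox factor of neural progenitors, rose by 6.87 (SE 1.07, adjusted p = 0.00042) and Dcx, a microtubule protein of migrating neurons, by 3.88 (SE 1.04, adjusted p = 0.014). Stmn2, a neuronal stathmin, was lower by 3.88 (SE 0.83, adjusted p = 0.0037). The median was 2.21, or 1.32 with a gene at 0 counts in D0 set at its bound. Of 7 neuron markers 6 are in the table, and they summed to 42.5 and 15.9 CPM at D0 and 19.4 to 43.2 CPM in ciNSLC.

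Of 8 genes on the neural crest and Schwann list, 6 are in the table and 4 were tested. Against D0, 0 were called at D4 and D8, beside 7.22% and 7.15% of all tested genes. At D12, 1 was higher and 0 lower (all genes 5.81% and 4.73%), and in ciNSLC 0 and 1 (11.7% and 16.5%). From D12 to ciNSLC, 0 were higher and 2 lower, beside 11% and 16.5% of all tested genes. Foxd3, a defining crest factor, was at or near 0 throughout, with at most 0.113 CPM. Ngfr, a crest surface receptor, was called higher at D12 (4.45, SE 1.19, adjusted p = 0.032, edgeR), at 32.5 CPM in the first library and 6.73 and 5.99 CPM in the others. Snai2, a crest and mesenchymal repressor, had 102 and 103 CPM at D0 and 0.557 to 0.845 CPM in ciNSLC, and fell by 7.24 (SE 0.34, adjusted p = 1.1e-07).

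Among 9 further Sox genes in the table, 6 were tested and 1 was called in ciNSLC against D0. Of all tested genes 28.2% were called there in either direction and 11.7% higher, so that 1 call says little about these genes. Sox13, the other SoxD gene, had 0.25 and 1.61 CPM at D0 and 3.39, 3.34 and 5.75 CPM in ciNSLC (2.17, SE 0.73, adjusted p = 0.04, edgeR). Sox12, the other SoxC gene, had 32.2 and 19 CPM at D0 and 27.5, 26.1 and 33.5 CPM in ciNSLC. Sox14, the SoxB2 paralogue of Sox21, had 0 counts in all 16 libraries.

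For each Sox gene, the genes with the closest course over the 16 libraries were taken by the smallest root mean square difference of mean-centred log2(CPM + 0.5), among 11959 named genes. Sox2 and Sox21 were each other's nearest, at 0.33, and Rorb was second to both, at 0.38. Sox8 was nearest to Nwd1 (0.50) and Sall3 (0.60), and Sox6 to Arhgef26 (0.54) and Lmo3 (0.63). Sox5 was nearest to Cnp (0.40), the myelin enzyme gene described above, and Myo6 (0.42), and Sox3 to Mtap7d2 (0.36) and Ina (0.39). Sox4 came nearest to Slc25a12 and Klhl36, both at 0.26, and Sox11 to Zfp2 (0.39) and Fads2 (0.43). Sec14l2 (0.34) and Glb1l2 (0.44) were nearest to Sox9, and Vit (0.44) and Cacna2d2 (0.51) to Sox10. The libraries share groups and batches, so these values are descriptions.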

How the data were processed

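Per the labels' protocols, cDNA was made with random and poly-T primers and amplified linearly with an Ovation kit, which does not mark strand, and read paired-end. The submitters' processing notes name TopHat2 2.0.13, the mm9 build, featureCounts, Subread and edgeR. The deposited table gives raw counts per gene for 37991 genes, per the file headers, and these counts entered every fit. The deposited CPM equals these counts scaled to their total, to rounding, and the deposited FPKM is close to that CPM per kilobase. FPKM served as an alternative scale for the order of genes. The deposited feature length, another unit, was used for levels per kilobase. A further 16 columns of per-sample values were not used. The 415 rows without a symbol held no more than 0.151% of any library.

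Counts were fitted with edgeR 4.0.16 in R 4.3.3 (default filter at 10 counts, TMM scaling, robust quasi-likelihood F-test, group as the only term), with Benjamini-Hochberg adjustment over all tested genes. A fit of 14 libraries (17455 genes) served D0 to ciNSLC. A fit of 16 (17636 genes) had SCR029 and priNPC as a single group, whose spread includes the difference between these sources. With a library of D0 left out, the lone one is assumed to vary like the other groups. Where a group had no count, the fold is a bound against 3 counts over that group. The 95% intervals (Clopper-Pearson) and floors cover counting error only. The test was checked on simulated counts. Promoter sequences are from RefSeq (GRCm38.p6). They were matched by symbol, without Sox3, Sox9 and Sox10.

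The named genes are the 10 Sox genes, the 2 nearest genes of each, and for 6 gene lists up to 3 called members per direction and comparison with the lowest p. Defining list genes without a call are named for their levels, chosen after these were seen. Members, lists and markers were chosen with earlier results of these data known, so no list is independent evidence.

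Alternatives were DESeq2 size factors, no filter, limma 3.58.1 voom, the Wald test of DESeq2 1.42.0, a stricter filter (1 CPM in at least 2 libraries), leaving out the mitochondrial rRNA genes, a batch term, a block for the replicate number, batch 2 alone, only the groups compared, either control alone, and each library left out.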

Additional observations from a re-analysis of the deposited data

How the results depend on the processing

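The calls between ciNSLC and D0 were the most stable, with 8 to 10 of the 10 genes called when any library was left out and in every other alternative. Against D12 the 9 calls ran from 5 (without the third D12 library) to 10. Calls of the controls against D0 ran from 7 to 10. The early calls were not stable. At D4 the 1 call became 2 with the DESeq2 Wald test, with a batch term and in batch 2 only, 0 with only the groups compared, and 0 to 1 when a library was left out. At D8 it became 4 with DESeq2, 3 with a batch term, 3 in batch 2 only and 0 with limma voom, and 0 to 3 when a library was left out. The 4 calls at D12 became 2 with no filter, 1 with voom, 0 with only the groups compared, and 0 to 4 when a library was left out. From D4 to D8 the 0 calls became 1 with DESeq2 and 2 in batch 2 only. From D8 to D12 the 1 call became 3 with DESeq2, 2 with a batch term, 3 in batch 2 only, 0 with only the groups compared, and 0 to 1 when a library was left out. With priNPC as the only control, the 0 calls between ciNSLC and the controls became 2. The cause of these shifts was not tested. Over all genes, the 1261, 1248 and 1840 calls at D4, D8 and D12 against D0 became 2262, 2298 and 2935 with DESeq2, 2328, 2185 and 2868 with a batch term, 2626, 2738 and 3948 in batch 2 only, and 548, 550 and 898 with only the groups compared. From D4 to D8 and from D8 to D12, 28 calls each became 273 and 530 with DESeq2, 102 and 278 with a batch term, 578 and 1492 in batch 2 only, 1 and 6 with only the groups compared, 10 and 124 with voom, 43 and 67 with no filter, and 45 and 124 with a replicate block. The 4808 calls of ciNSLC against D12 became 8148 in batch 2 only. The 4222 of the controls against D0 became 1498 with only the groups compared. The 270 between ciNSLC and the controls became 995 with DESeq2, 648 with a batch term, 23 with only the groups compared and 463 with SCR029 alone. With a library left out, the all-gene counts ran from 609 (without the second D0 library) to 1496 at D4, 622 to 1560 at D8 and 791 to 2225 at D12 against D0, the lowest each time without the second D0 library. They ran from 0 (without the second D4 library) to 67 (without the first D8 library) from D4 to D8, and from 3 (without the third D12 library) to 86 (without the first D4 library) from D8 to D12. They ran from 3001 (without the second D12 library) to 5845 for ciNSLC against D12, 2628 (without the second D0 library) to 4524 for the controls against D0, and 109 (without the first ciNSLC library) to 321 between ciNSLC and the controls.

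The direction of small changes depended on single libraries, with the cause not tested. Over the libraries left out in turn, the log2 change ran from -0.13 to 0.04 for Sox4 at D4 against D0, from -0.41 to 0.15 for Sox5 at D8 and from -0.46 to 0.18 for Sox5 at D12. From D4 to D8 it ran from -0.11 to 1.04 for Sox3 and from -0.24 to 0.03 for Sox9. From D8 to D12 it ran from -0.32 to 1.47 for Sox2, -0.78 to 1.35 for Sox21, -0.31 to 0.30 for Sox5 and -0.25 to 0.74 for Sox10. Between ciNSLC and the controls Sox3 ran from -0.20 to 0.46. In batch 2 only, the sign also turned for Sox4 at D4 (0.03) and Sox6 at D12 (-0.14) against D0, for Sox3 (-0.08), Sox9 (0.00) and Sox10 (-0.07) from D4 to D8, and for Sox21 (-0.18) and Sox5 (-0.38) from D8 to D12. Voom turned Sox3 from D4 to D8 (-0.27) and Sox10 between ciNSLC and the controls (0.33). With SCR029 as the only control Sox10 was -3.58 against D0, and ciNSLC against it gave 0.18 for Sox2, 0.43 for Sox21, 0.23 for Sox4 and 8.30 for Sox10. With priNPC alone the values were -0.19 for Sox3, 0.19 for Sox8 and -0.34 for Sox9, and a batch term gave 0.18 for Sox8.

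Same-numbered libraries of different groups deviated with r from -0.0184 to 0.73, over 0.1 in 21 of 26 pairs. As not every pair was over 0.1 and the labels name no shared culture, the numbers were not taken to pair the samples, although the first number also marks batch 1. With a replicate block the calls were 1 at D4, 3 at D8 and 4 at D12 against D0, and 10 in ciNSLC against D0 and against D12, beside 1793, 1574, 2196, 5875 and 5882 of all 17455 tested genes. The order per kilobase kept 62 of 70 places on the deposited FPKM scale. Of the 20 nearest genes, 9 were shared when both controls were left out and 13 without the first D12 library. At 3 counts or fewer, Sox3 and Sox10 at D0 are limited by depth.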
